A study of Homo sapiens with 24 samples.

Results

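Digoxin at 5 µM was set against vehicle at T4 in AC16 cells, with 3 arrays on each side, which makes 6 of the 24 arrays of the series. The arrays were assigned to their groups by their sample titles. AC16 is an immortalized human line derived in part from adult ventricular cells. Each gene was read here in bulk RNA on Human Gene 2.0 ST arrays, which carry many short probe sets along each transcript. All cells of the series, vehicle cells included, had first been synchronized with 100 nM dexamethasone, a synthetic glucocorticoid, for 2 h and then washed. The T4 groups were cells given 5 µM digoxin, cells given 0.5 µM digoxin and cells given vehicle (spelled "Vehicule" in the labels, which do not say what it is), all collected 4 h after treatment. Untreated cells collected at T0, and cells given 5 µM digoxin, 0.5 µM digoxin or vehicle and collected at T20, are used further down, while the untreated T16 cells enter only the shared estimate of the spread. The sample descriptions also call the treated samples untreated cells, so the groups rest on the titles and on the treatment field. For T20 the labels give 4 h after treatment and the growth protocol lists 4, 16 and 20 h, and this was not settled. The labels number the replicates of a group but do not say whether they were separate cultures, so the p-values cover the variation among the arrays deposited, and this variation may be technical.

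Digoxin is a cardiac glycoside that binds the alpha subunit of the sodium potassium pump, the enzyme that exports sodium and imports potassium at the plasma membrane. When the pump is inhibited, sodium accumulates in the cell and potassium is lost, and calcium can rise because the sodium calcium exchanger works against a smaller sodium gradient, which is the basis of the drug's use in heart failure. Dexamethasone activates the glucocorticoid receptor, induces PER1 among other direct targets, and is used in culture to bring the circadian clocks of the cells into step.

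A gene value was the median of the probe sets that the platform annotation gives to 1 symbol, on the log2 scale of the deposited values after quantile normalization. Differences are 5 µM digoxin minus vehicle on that scale with their standard errors from limma, p-values were adjusted by the Benjamini-Hochberg method over the 11911 genes tested, and a gene was called at an adjusted p under 0.05. The deposited values ran from 1.28 to 19.93, a range whose making the sources used here do not fully describe, so differences stay on this scale and are not turned into linear folds. Of 26 markers of cardiomyocytes 21 did not reach the filter, among them MYH6, MYH7, TNNT2, ACTC1 and RYR2, whereas 13 of 15 fibroblast markers lay above it. Of the markers of other cells, 1 of 9 for endothelium, 6 of 9 for smooth muscle and 0 of 6 for leukocytes passed the filter, and no marker of any of the 5 lists was called between 5 µM digoxin and vehicle. In bulk RNA, fewer cells of a type and less RNA per cell cannot be told apart. Correlations between arrays across genes were 0.985 to 0.988 within the 5 µM digoxin group and within the vehicle group and 0.976 to 0.979 between them. The poly-A control RNAs that are added to each sample averaged 11.83, 11.85 and 11.78 on the arrays of 5 µM digoxin cells, against 11.52, 11.67 and 11.58 on those of vehicle cells, and the part of this difference in the gene results was not tested beyond a fit of arrays scaled to these controls.

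Between 5 µM digoxin and vehicle at T4, 851 of 11911 genes were called, or 7.14%, of which 387 (3.25%) were higher and 464 (3.9%) lower under 5 µM digoxin. Among called genes with at least 3 probe sets the largest rises were those of EGR1, an immediate early factor, SGK1, PER1 and SLC19A2, targets of the glucocorticoid receptor, and CXCL8, a chemokine. The largest decreases included EIF5 and EEF2K of translation and the enzymes FPGT, MOCS2 and CPT1C. The median rise among called genes was 0.95 and the median decrease was -1.05. A change of at least 1 was reached by 177 rises and 251 decreases, and a change of at least 2 by 25 rises and 18 decreases. Across all genes tested, the 3 and 3 arrays did not overlap for 27.9%, and this held for 383 of the 387 called rises and 462 of the 464 called decreases. The median difference over all genes tested was 0.02. Protein coding genes made up 368 of the rises and 399 of the decreases, of 10665 tested (7.19% called). Long non-coding RNAs had 7 rises and 25 decreases of 369 tested (8.67%), microRNAs 3 and 8 of 243 (4.53%), and pseudogenes 4 and 22 of 375 (6.93%). With each gene combined by median polish of its probe sets in place of their median, 2594 genes were called, 1080 higher and 1514 lower, and 750 of the 851 were among them. The split between rises and decreases depends on the scaling. Where arrays were centred on the median gene value, 476 were higher and 394 lower. Where arrays were scaled to the added poly-A controls, 155 were higher and 1049 lower, and the median difference over all genes tested was then -0.24. Without array 1 or array 3 of 5 µM digoxin the calls numbered 510 and 557, and without array 2 or array 3 of vehicle 566 and 557.

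**Figure D1:**
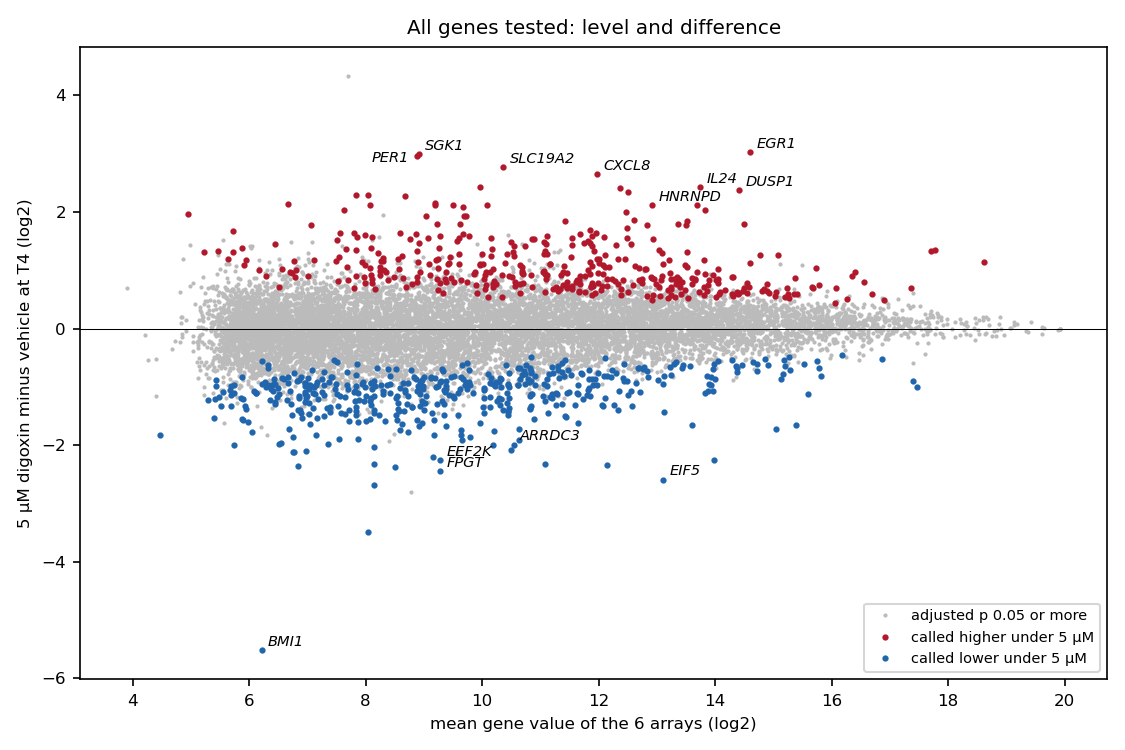
Mean log2 gene value of the 6 arrays (x axis) and difference between 5 µM digoxin and vehicle at T4 (y axis) for the 11911 genes tested, with the 387 genes called higher in red, the 464 called lower in blue and the others in grey. EGR1 at 3.02 is the highest of the genes called, and BMI1 at -5.52 stands alone at the bottom with 1 of its 3 probe sets separate.

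Several immediate early transcription factors rose. EGR1, a zinc finger factor that cells make within minutes of growth factor or stress signals, read 16.26, 16.21 and 15.86 in 5 µM digoxin cells, against 12.70, 13.27 and 13.29 in vehicle cells. The lowest of the 5 µM digoxin arrays lay more than 2 log2 units above the highest vehicle array, and the difference of 3.02 ± 0.18 was the largest rise among the genes called (adjusted p = 4.66e-09, limma). Of the 9 EGR and IER early genes tested, 5 rose and 0 fell (55.6% called, against 7.14% of all genes tested, and 3.25% of all genes called higher), with a median difference of 0.93. SRF, the factor that recruits its partners to the CArG boxes of early genes, rose by 1.07 ± 0.27, and NAB2, a corepressor of the EGR factors, was the fifth member to rise. IER3 and IER5, early genes of stress and growth signals, rose by 0.98 ± 0.19 and 0.93 ± 0.19, and IER5 was at 0.56 by median polish.

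Of 13 genes of the AP-1 family tested, 6 rose and 0 fell (46.2% called), with a median of 0.75. These were FOS, JUN, JUNB and JUND, which form the AP-1 dimers, and the small MAF proteins MAFG and MAFK. JUND read 12.39, 12.67 and 12.40 in 5 µM digoxin cells, against 10.83, 10.91 and 11.33 in vehicle cells. Its groups were far apart, and the rise was 1.47 ± 0.18 (adjusted p = 3.04e-05). JUNB rose by 1.60 ± 0.25 (adjusted p = 0.00034), with no overlap between 11.86, 12.07 and 11.79 in 5 µM digoxin cells, against 10.04, 10.51 and 10.37 in vehicle cells. FOS was read at a low level, 7.26, 6.44 and 5.98 in 5 µM digoxin cells, against 4.46, 4.84 and 5.35 in vehicle cells, and the difference of 1.68 ± 0.37 carried a larger error (adjusted p = 0.0071) and was 1.07 by median polish. Of 12 Krüppel-like factors tested, 3 rose and 1 fell (33.3% called), with a median of 0.61. KLF11, a TGF-beta inducible repressor, rose by 1.94 ± 0.20, KLF9, a glucocorticoid target that can repress clock output, by 1.79 ± 0.26, and KLF5 by 1.62 ± 0.36. KLF2, a factor of endothelial quiescence, fell by 1.27 with a standard error of 0.26, and its 3 arrays under 5 µM digoxin lay below all vehicle arrays. Of 11 targets of CREB tested, 0 were called, and their median difference was 0.16.

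Several inhibitors that act back on MAP kinase signalling rose as well. Of 16 MAP kinase phosphatases and Sprouty genes tested, 6 rose and 0 fell (37.5% called), with a median of 0.40. DUSP1, the nuclear phosphatase that inactivates p38, JNK and ERK, read 15.61, 15.59 and 15.60 in 5 µM digoxin cells, against 13.09, 13.13 and 13.47 in vehicle cells. The 3 treated arrays were nearly equal and lay above every vehicle array, with a rise of 2.37 ± 0.22 (adjusted p = 2.04e-06). SPRY2, which restrains receptor tyrosine kinase signalling to RAS, read 10.56, 10.10 and 10.13 in 5 µM digoxin cells, against 7.90, 8.45 and 7.96 in vehicle cells, a rise of 2.16 ± 0.23 (adjusted p = 4.58e-06). DUSP10 and DUSP16, phosphatases that prefer JNK and p38, rose by 1.35 ± 0.21 and 1.38 ± 0.25, and the other members called were SPRY4 and ERRFI1, an inhibitor of the EGF receptor.

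The promoters of 6 of the 15 genes with the largest rises are shown as examples of the motifs searched. Of the same 15 genes, ABL2 and ANKRD1 hold an AP-1 site and NFKBIZ a kappa-B site as well, and of the 15 largest decreases BMI1 and EEF2K hold an E-box and TMEM177 a kappa-B site. Those shown are the 250 bases before the RefSeq start of the gene in GRCh38.p14, written 5′ to 3′ on the strand of the gene, and capitals mark the motifs that were searched. EGR1 lies on chr5:138465229-138465478 (plus strand) with a pair of CArG boxes, DUSP1 on chr5:172771196-172771445 (minus strand) with the cyclic AMP response element TGACGTCA and the E-box CACGTG, and IL11 on chr19:55370464-55370713 (minus strand) with the AP-1 site TGANTCA. CXCL8 lies on chr4:73740319-73740568 (plus strand) with an AP-1 site, CXCL2 on chr4:74099196-74099445 (minus strand) with a kappa-B match in overlapping frames, and PER1 on chr17:8152405-8152654 (minus strand) with an E-box. A stretch of CXCL8 that misses the kappa-B pattern by a single base was not marked, so unmarked letters do not show that a site is absent.
EGR1: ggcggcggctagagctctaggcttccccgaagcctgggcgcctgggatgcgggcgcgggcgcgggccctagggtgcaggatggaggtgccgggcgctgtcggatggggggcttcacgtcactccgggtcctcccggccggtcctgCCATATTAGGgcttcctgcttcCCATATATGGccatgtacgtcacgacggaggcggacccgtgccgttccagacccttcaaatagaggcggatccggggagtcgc
DUSP1: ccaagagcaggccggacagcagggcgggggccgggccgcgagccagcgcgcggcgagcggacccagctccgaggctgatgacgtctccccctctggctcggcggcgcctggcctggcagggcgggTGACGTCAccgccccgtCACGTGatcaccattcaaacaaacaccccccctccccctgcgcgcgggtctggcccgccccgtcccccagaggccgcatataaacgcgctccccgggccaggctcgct
IL11: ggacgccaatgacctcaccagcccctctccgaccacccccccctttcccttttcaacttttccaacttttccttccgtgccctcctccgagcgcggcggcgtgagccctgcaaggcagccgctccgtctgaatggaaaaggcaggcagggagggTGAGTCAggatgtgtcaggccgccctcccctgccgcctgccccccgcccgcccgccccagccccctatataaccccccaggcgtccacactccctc
CXCL8: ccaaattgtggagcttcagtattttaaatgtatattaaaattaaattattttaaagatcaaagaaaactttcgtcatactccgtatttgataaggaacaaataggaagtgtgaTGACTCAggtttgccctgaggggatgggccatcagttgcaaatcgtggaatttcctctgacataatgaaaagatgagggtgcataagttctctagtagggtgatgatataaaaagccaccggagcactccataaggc
CXCL2: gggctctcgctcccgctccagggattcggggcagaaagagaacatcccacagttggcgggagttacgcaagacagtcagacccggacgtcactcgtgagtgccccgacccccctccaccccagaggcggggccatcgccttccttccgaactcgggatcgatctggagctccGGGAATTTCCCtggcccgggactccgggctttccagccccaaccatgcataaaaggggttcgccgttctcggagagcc
PER1: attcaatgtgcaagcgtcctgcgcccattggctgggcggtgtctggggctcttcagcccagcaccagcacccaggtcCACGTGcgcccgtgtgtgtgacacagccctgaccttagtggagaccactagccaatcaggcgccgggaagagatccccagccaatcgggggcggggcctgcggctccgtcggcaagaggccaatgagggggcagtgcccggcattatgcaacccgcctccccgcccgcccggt
The sites run from -105 to -96 and from -83 to -74 before the start of EGR1, from -125 to -118 and from -108 to -103 before that of DUSP1, from -96 to -90 before IL11, from -137 to -131 before CXCL8, from -78 to -68 before CXCL2 and from -173 to -168 before PER1.

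Both strands of 300 bases, 250 before and 50 after the start, were searched for these motifs in 27305 RefSeq promoters and matched to genes by symbol, which gave 323 of the 387 genes called higher and 356 of the 464 called lower. CArG boxes were in 2.79% of promoters of genes called higher (9 of 323), in 0.562% of those called lower (2 of 356), in 1.01% of those of all genes tested and in 1.29% of all promoters. The AP-1 site was in 6.5% of promoters of genes called higher, 4.49% of those called lower, 4.43% of those of genes tested and 7.76% of all promoters. For the cyclic AMP response element the shares were 3.72%, 3.65%, 3.35% and 1.98% in the same order, for the E-box 11.1%, 10.4%, 10.5% and 7.43%, for the EGR site GCGTGGGCG 1.86%, 1.12%, 1.3% and 0.784%, and for the kappa-B site 11.8%, 11.8%, 12.7% and 10.8%. Sites of different motifs overlapped in few promoters, most often the AP-1 site and the E-box, in 19. A match describes the letters in this window only. Among the 15 largest rises the AP-1 site was found in 4, and the E-box and the kappa-B site in 2 each. The CArG box and the cyclic AMP response element were found in 1 each and the EGR site in 0. Of the 15 largest decreases, 12 had a matched promoter.

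**Figure D2:**
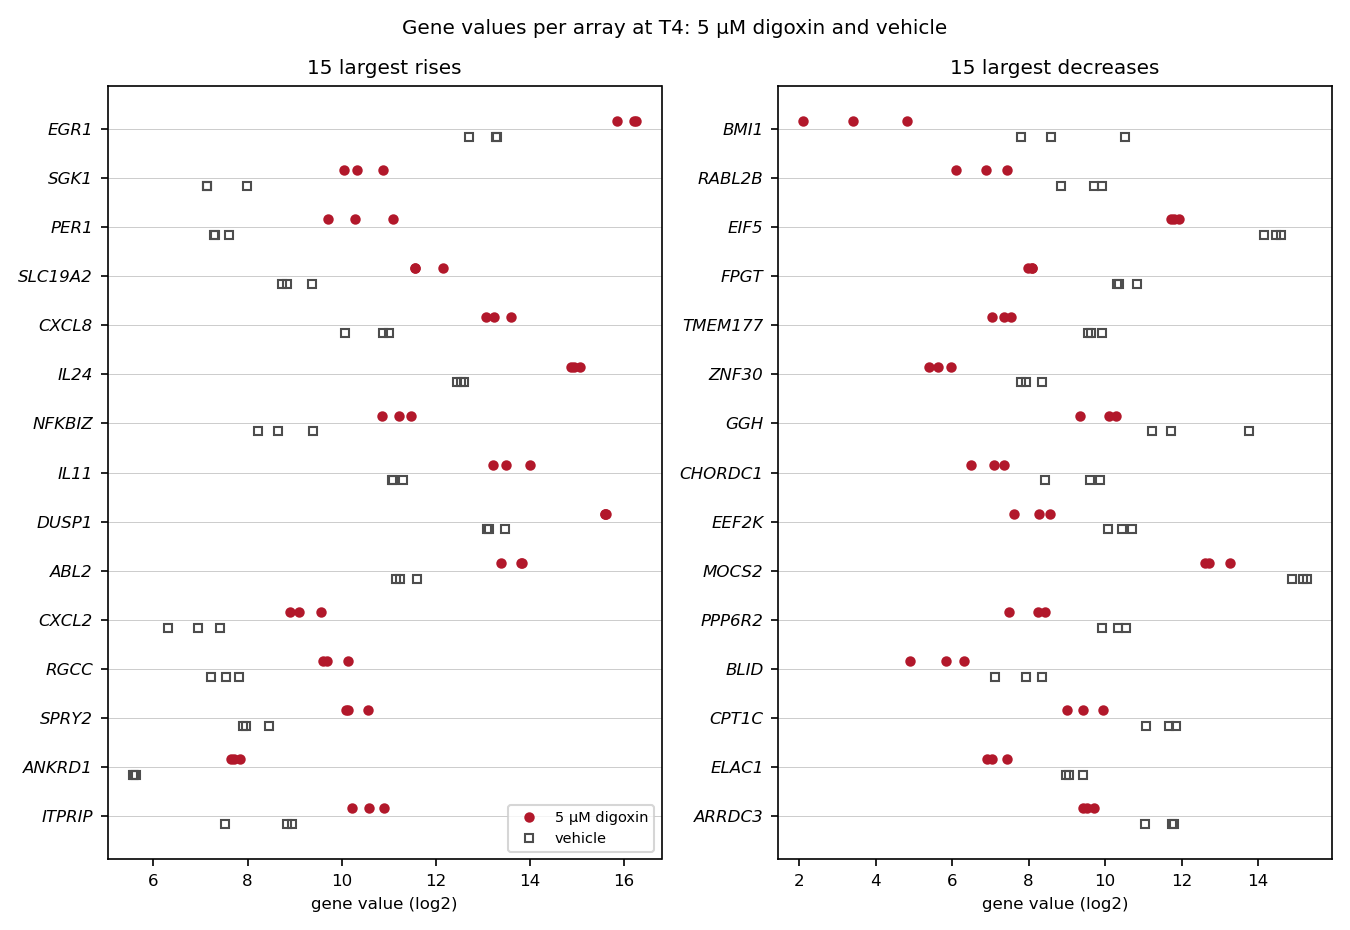
Log2 gene values (x axis) of the 3 arrays of 5 µM digoxin cells (red circles) and the 3 arrays of vehicle cells (open squares) at T4, for the 15 largest rises (left) and the 15 largest decreases (right) among called genes with at least 3 probe sets. In none of the 30 genes do the groups overlap, which the rule for naming them required, and the arrays of BMI1 in both groups and the vehicle arrays of GGH are the most spread.

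Secreted signals and their feedback were a second set of large rises. Of 17 genes tested from a list of the interleukin-6 and interleukin-1 families, their receptors, IL24 and SOCS3, 7 rose and 0 fell. This was 41.2% called, against 7.14% of all genes, with a median of 0.75. IL1A, IL1B, IL1R1, IL1RAP and IL18, of the interleukin-1 family, were not called (adjusted p of 0.116 or more, limma). IL24, a cytokine of the interleukin-10 family that signals through JAK and STAT, read 15.07, 14.88 and 14.93 in 5 µM digoxin cells, against 12.59, 12.53 and 12.46 in vehicle cells, and all 10 of its probe sets separated the groups (difference 2.43 ± 0.19, adjusted p = 2.03e-07). IL11, an interleukin-6 family cytokine that acts on fibroblasts and stroma, read 13.49, 14.00 and 13.22 in 5 µM digoxin cells, against 11.07, 11.30 and 11.08 in vehicle cells. Its treated arrays lay far above all vehicle arrays, a rise of 2.42 ± 0.28 (adjusted p = 1.21e-05). IL6, the founding member of the family, read 10.74, 10.19 and 10.20 in 5 µM digoxin cells, against 9.00, 8.64 and 8.82 in vehicle cells, a rise of 1.56 ± 0.19 (adjusted p = 1.94e-05). CLCF1, another cytokine of this family, rose by 1.48 ± 0.20, SOCS3, which blocks JAK signalling downstream of it, by 1.09, and the receptors LIFR and OSMR by 0.91 and 0.78. LIF itself was not called, at 0.75 ± 0.30 (adjusted p = 0.15), with vehicle arrays from 7.93 to 9.48, but it was called by median polish, at 1.09 (adjusted p = 0.000966). Of all 18 alternatives, LIF was called in 3.

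Chemokines moved in both directions. Of 9 tested, 2 rose and 2 fell (44.4% called), with a median of 0.35. CXCL8, which draws neutrophils, read 13.07, 13.60 and 13.23 in 5 µM digoxin cells, against 10.87, 11.00 and 10.06 in vehicle cells, a rise of 2.66 ± 0.33 (adjusted p = 3.04e-05), and all 6 of its probe sets separated the groups. CXCL2, a neutrophil chemokine as well, read 9.56, 9.09 and 8.90 in 5 µM digoxin cells, against 6.31, 7.42 and 6.94 in vehicle cells, a rise of 2.29 ± 0.31 (adjusted p = 6.15e-05). CXCL12, which retains CXCR4-bearing cells, went the other way, with 12.14, 12.47 and 12.64 in 5 µM digoxin cells, against 13.71, 13.86 and 13.96 in vehicle cells. All its treated arrays lay below all vehicle arrays, and it fell by 1.43 with a standard error of 0.23 (adjusted p = 0.000531). CCL2, the monocyte chemokine, fell by 0.68 with a standard error of 0.20 (adjusted p = 0.0446).

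Among 18 subunits and inhibitors of NF-kB tested (22.2% called), the 4 that rose were inhibitors or regulators, and 0 fell. NFKBIZ, a nuclear IkB protein that directs NF-kB to secondary targets such as IL6, read 11.22, 11.47 and 10.85 in 5 µM digoxin cells, against 8.22, 9.40 and 8.64 in vehicle cells. Its groups were separate, and the rise was 2.43 ± 0.29 (adjusted p = 2.14e-05). TNFAIP3, the ubiquitin editing enzyme A20, read 14.83, 14.76 and 14.65 in 5 µM digoxin cells, against 12.65, 12.50 and 12.73 in vehicle cells, a rise of 2.12 ± 0.27 (adjusted p = 3.04e-05). NFKBIA, which holds NF-kB in the cytoplasm, and CYLD, a deubiquitinase, rose by 1.56 ± 0.40 and 0.77 ± 0.22, and NFKBIA was at 0.79 by median polish. The median of the list was 0.26.

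Targets of the glucocorticoid receptor, whose ligand dexamethasone every group had received before treatment, included several of the largest rises. Of 18 tested, 9 rose and 0 fell (50% called, against 7.14% of all genes), with a median of 0.57. SGK1, a kinase that raises sodium channel and pump activity at the membrane, read 10.04, 10.87 and 10.32 in 5 µM digoxin cells, against 7.14, 7.14 and 7.98 in vehicle cells. Vehicle arrays and treated arrays did not overlap, and the rise was 2.99 ± 0.48 (adjusted p = 0.000442), with 23 of 35 probe sets separate in the same direction. SLC19A2, a thiamine transporter, read 11.55, 12.15 and 11.55 in 5 µM digoxin cells, against 8.74, 8.83 and 9.36 in vehicle cells, a rise of 2.77 ± 0.28 (adjusted p = 3.93e-06). CEBPD, a leucine zipper factor of the acute phase response, rose by 2.00 ± 0.20 and ZFP36, which binds AU-rich elements and speeds the decay of cytokine mRNAs, by 1.72 ± 0.17. Not every target moved, since the list reached down to -0.56 and 9 of the 18 were not called.

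Their levels at T0, in untreated cells just after synchronization, are set beside these. SLC19A2 averaged 11.75 ± 0.35 in T4 cells given 5 µM digoxin and 13.23 ± 0.12 in untreated T0 cells (SD, n = 3 each), and DUSP1 averaged 15.60 ± 0.01 and 17.68 ± 0.20 in the same order. Both were lower under 5 µM digoxin at T4 than at T0, with differences of -1.48 and -2.07, and higher than in vehicle cells at T4. KLF9 likewise averaged 10.51 ± 0.07 in T4 cells given 5 µM digoxin and 12.83 ± 0.10 in T0 cells. SGK1 averaged 10.41 ± 0.42 under 5 µM digoxin at T4 and 8.99 ± 0.78 at T0, a difference that missed the threshold (adjusted p = 0.0731). In the comparison of 5 µM digoxin at T4 with T0, where time and treatment change together, 1019 genes were called (8.56%), 482 higher (4.05%) and 537 lower (4.51%). Without array 1 or array 3 of 5 µM digoxin 663 and 613 were called.

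Of 19 clock genes tested, 4 rose and 1 fell, or 26.3% called against 7.14% of all genes, with a median of 0.23. PER1, a repressor of the clock that glucocorticoids induce directly, read 9.71, 11.10 and 10.29 in 5 µM digoxin cells, against 7.31, 7.61 and 7.29 in vehicle cells. The lowest treated array lay more than 2 log2 units above the highest vehicle array, and the rise was 2.96 ± 0.36 (adjusted p = 2.34e-05), but its level stayed far under the 14.21 ± 0.29 of T0 cells (SD, n = 3). CRY1, another repressor, read 10.86, 10.51 and 10.47 in 5 µM digoxin cells, against 12.04, 11.69 and 11.66 in vehicle cells, and fell by 1.19 with a standard error of 0.21 (adjusted p = 0.00135). CRY2, NR1D1, which encodes REV-ERB alpha, and NFIL3 rose by 0.90 ± 0.18, 1.32 ± 0.27 and 0.61 ± 0.16, of which NR1D1 was at 5.84, 6.19 and 5.63 in 5 µM digoxin cells, against 4.65, 4.56 and 4.50 in vehicle cells, with both group means under the filter of 6.02, which NR1D1 passed through other groups. CRY2 was at 0.33 (adjusted p = 0.0749) by median polish.

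The other clock genes were not called on the median of their probe sets. PER2 was at 1.13 ± 0.45, with treated arrays from 7.81 to 10.65 around vehicle arrays of 7.83 to 8.26, and NR1D2 at 0.76 ± 0.24 (adjusted p = 0.0571). BMAL1, the partner of CLOCK, was at -0.71 ± 0.28, CLOCK at -0.08 ± 0.16 and BHLHE40, the repressor DEC1, at 0.65 ± 0.23. PER3, NPAS2, BHLHE41, BMAL2, CSNK1D, CSNK1E, DBP, CIART and TEF lay between -0.50 and 0.69 with adjusted p of 0.161 or more. By median polish, NR1D2 at 1.07 (adjusted p = 3.57e-06), PER3 at 0.55 (adjusted p = 0.0136), CIART at 0.52 (adjusted p = 0.0392) and CSNK1E at 0.29 (adjusted p = 0.0262, with the sign reversed) were called. Of all alternatives that tested them, NR1D2 was called in 6 of 18, PER3 in 2 of 17, and CIART and CSNK1E in 1 of 17 each. HLF, RORA, RORB and FBXL21P lay below the filter.

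The alpha subunits of the pump, which digoxin binds, were not analysed here. Of 9 genes of the sodium pump and cation transport tested, 0 were called, with a median of 0.34. ATP1B1, a beta subunit of the pump, read 11.24, 11.42 and 11.28 in 5 µM digoxin cells, against 10.91, 10.77 and 10.67 in vehicle cells, so that the groups did not overlap, but the difference of 0.53 ± 0.29 missed the threshold (adjusted p = 0.302). ATP1B3, another beta subunit, was at 0.34 ± 0.49 and SLC8A1, the sodium calcium exchanger, at 0.34 ± 0.38. SLC12A4 and SLC12A2, which carry potassium and chloride, were at 0.68 ± 0.33 and 0.46 ± 0.17, and the calcium pumps ATP2A2, ATP2B1 and ATP2B4 and the pump modulator FXYD5 lay between -0.23 and 0.12. Whether members are called depends on how probe sets are combined, since by median polish ATP1B1 at 0.57 (adjusted p = 3.56e-05), ATP1B3 at 0.28 (adjusted p = 0.0276) and SLC12A4 at 0.31 (adjusted p = 0.0303) were called higher. Of all 18 alternatives, ATP1B1 was called in 2, and ATP1B3 and SLC12A4 in 1 each. ATP1B2, FXYD1, FXYD2, FXYD3, FXYD7, KCNJ2, SLC8A2 and SLC8A3 lay below the filter. Of 13 genes of osmotic stress tested (15.4% called), 2 rose, the taurine carrier SLC6A6 by 1.43 ± 0.34 and the amino acid carrier SLC38A2 by 1.15 ± 0.15.

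**Figure D3:**
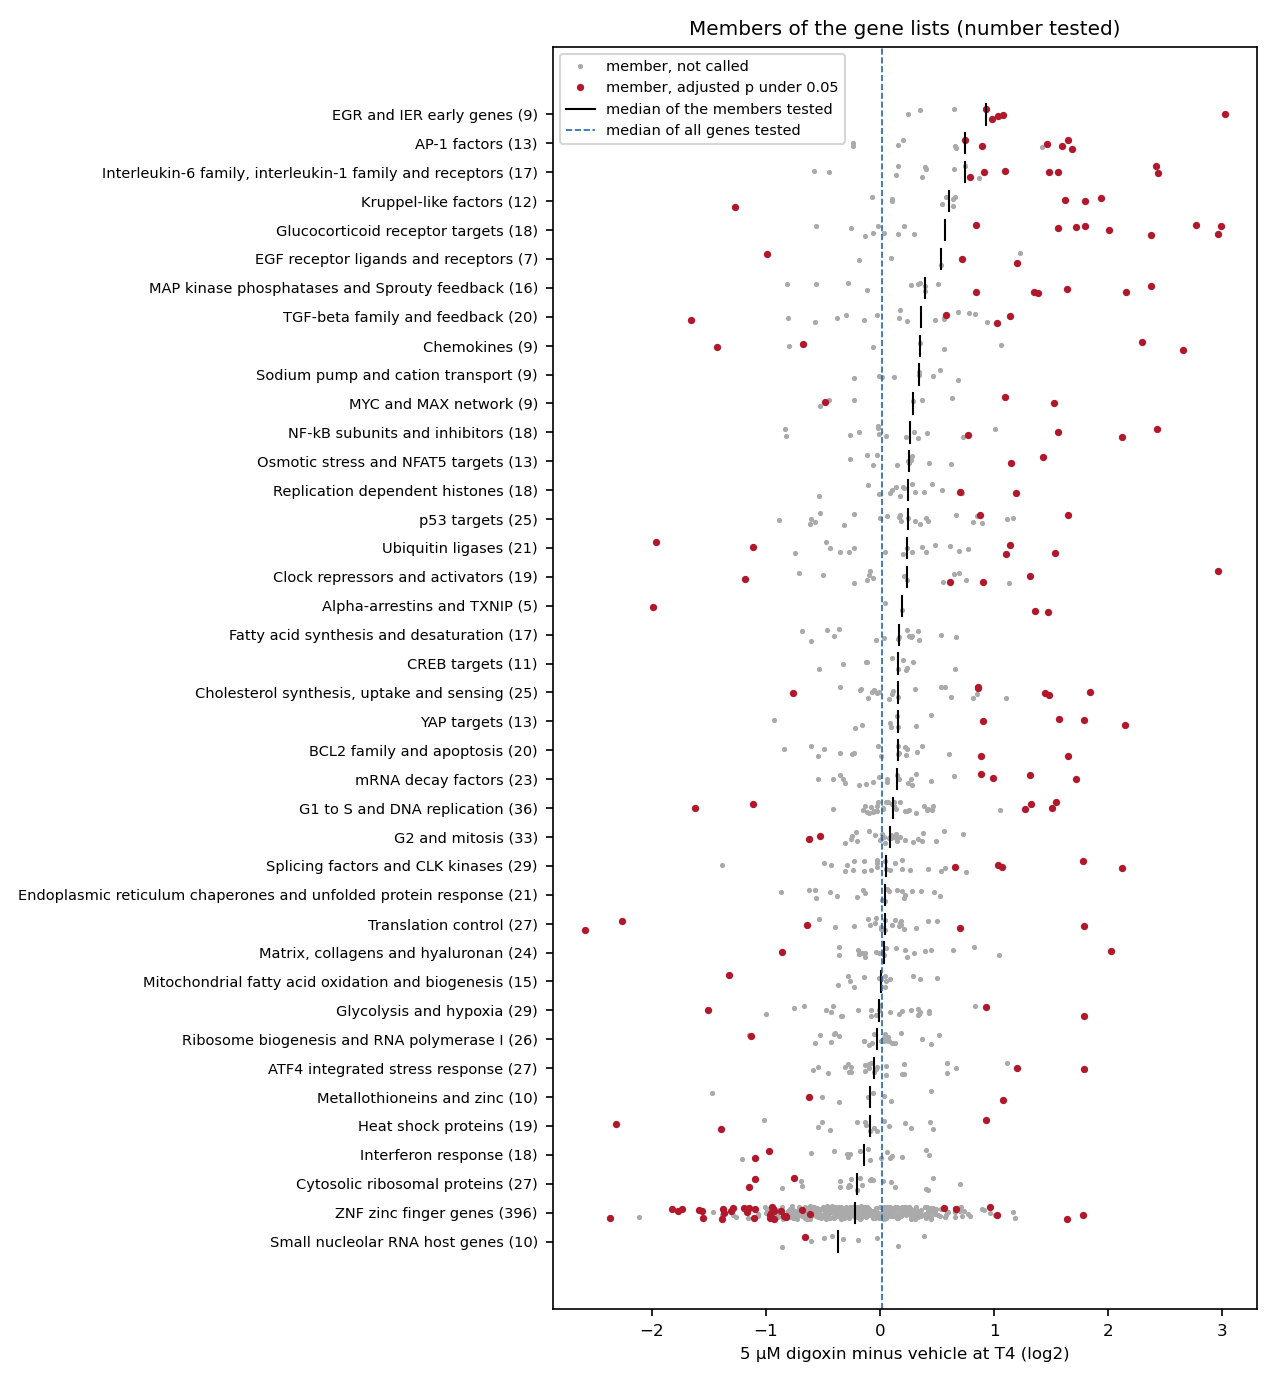
Difference between 5 µM digoxin and vehicle at T4 (log2, x axis) of each tested member of each gene list, ordered by the list median (black bar), with called members in red. The EGR and IER genes have the highest median, 0.93, the small nucleolar RNA host genes the lowest, -0.37, and the dashed line is the median of all genes tested.

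Of 13 YAP targets tested, 4 rose and 0 fell (30.8% called), with a median of 0.16. ANKRD1, a stress-responsive ankyrin repeat protein of cardiac and stromal cells, read 7.83, 7.65 and 7.71 in 5 µM digoxin cells, against 5.62, 5.59 and 5.56 in vehicle cells. Its vehicle arrays lay under the filter, and the rise was 2.14 ± 0.27 (adjusted p = 3.04e-05), with 10 of 11 probe sets separate. CCN2, a matricellular protein, read 15.44, 15.31 and 15.40 in 5 µM digoxin cells, against 13.24, 13.51 and 14.04 in vehicle cells, a rise of 1.79 ± 0.22 (adjusted p = 2.93e-05), CCN1 rose by 0.90 ± 0.18, and LATS2, a kinase that inhibits YAP, rose by 1.57 ± 0.26. ANKRD1 and CCN2 were much higher in T0 cells, at 11.28 ± 0.17 and 18.70 ± 0.28 (SD, n = 3). Of 20 TGF-beta genes tested (20% called), TGFB2, FST and SMURF1 rose and 1 fell, ID1, a target of BMP signalling, by 1.66 with a standard error of 0.24 (adjusted p = 0.000121). FST was called in only 5 of 18 alternatives, and TGFB2, SMURF1 and ID1 in 18 of 18.

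Of 24 genes of matrix, collagens and hyaluronan tested, 1 rose and 1 fell, and this 8.33% is near the 7.14% of all genes. ADAMTS1, a protease of versican, read 14.86, 14.79 and 14.84 in 5 µM digoxin cells, against 12.68, 12.71 and 13.02 in vehicle cells, a rise of 2.03 ± 0.24 (adjusted p = 1.94e-05). HAS2, which makes hyaluronan, fell by 0.86 with a standard error of 0.21 (adjusted p = 0.0137). Among 7 ligands and receptors of the EGF family (42.9% called), EREG rose by 1.20 ± 0.24, EGFR rose by 0.72 ± 0.21 and ERBB2 fell by 0.99. The receptor calls were lost under median polish, with 0.37 (adjusted p = 0.0598) for EGFR and -0.33 (adjusted p = 0.0621) for ERBB2.

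The other largest rises had separate functions. ABL2, a tyrosine kinase of the actin cytoskeleton, read 13.39, 13.84 and 13.81 in 5 µM digoxin cells, against 11.16, 11.23 and 11.61 in vehicle cells, a rise of 2.35 ± 0.24 (adjusted p = 3.93e-06). RGCC, a regulator of the cell cycle that responds to complement and TGF-beta, read 9.69, 10.14 and 9.60 in 5 µM digoxin cells, against 7.23, 7.55 and 7.81 in vehicle cells, a rise of 2.28 ± 0.22 (adjusted p = 3.39e-06). ITPRIP, which binds the inositol trisphosphate receptor calcium channel, read 10.58, 10.90 and 10.21 in 5 µM digoxin cells, against 7.53, 8.84 and 8.94 in vehicle cells. Its rise of 2.13 ± 0.37 (adjusted p = 0.000873) was separate on 3 of 7 probe sets and was 0.95 by median polish.

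Of 27 genes of translation control tested, 2 rose and 3 fell (18.5% called), with a median of 0.04, and EIF5 and EEF2K were the largest of these changes. EIF5, which makes the initiator complex hydrolyse GTP at the start codon, read 11.79, 11.94 and 11.72 in 5 µM digoxin cells, against 14.60, 14.47 and 14.15 in vehicle cells. The treated arrays lay at least 2 log2 units under every vehicle array, at -2.59 ± 0.26 (adjusted p = 3.93e-06). Its probe sets did not move alike: 13 of 20 fell without overlap, by 1.93 to 3.74, while 2 rose without overlap, by 0.76 and 0.80. EEF2K, the kinase that slows elongation by phosphorylating eEF2, read 7.61, 8.55 and 8.28 in 5 µM digoxin cells, against 10.07, 10.71 and 10.43 in vehicle cells, and fell by 2.26 with a standard error of 0.25 (adjusted p = 6.35e-06), with 15 of 18 probe sets separate. PPP1R15A, the stress-inducible subunit that dephosphorylates eIF2 alpha, rose by 1.79 ± 0.22 (adjusted p = 3.04e-05), EIF1, another start codon factor, rose by 0.70 ± 0.17 (0.41 by median polish), and AZIN1 fell by 0.64.

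Of 23 mRNA decay factors tested, 4 rose and 0 fell (17.4% called), with a median of 0.15. They were ZFP36, the decapping factors PNRC1 and DCP1A, and the ribonuclease ZC3H12C, which rose by 1.31 ± 0.36. Of 29 splicing genes tested, 5 rose and 0 fell (17.2% called), with a median of 0.05. CLK3, a kinase of SR proteins, read 14.37, 14.57 and 14.25 in 5 µM digoxin cells, against 12.53, 12.57 and 12.74 in vehicle cells, a rise of 1.78 ± 0.19 (adjusted p = 4.37e-06) that was 1.17 by median polish, and CLK1 rose by 1.07 ± 0.22. HNRNPD, the AU-rich element binding protein AUF1, rose by 2.12 ± 0.29 (adjusted p = 6.47e-05) on the median of its probe sets, but of 19 probe sets 6 were separate and higher and 1 was separate and lower, and the 6 with the highest values differed by -0.13 to 0.10. By median polish HNRNPD was at 0.24 (adjusted p = 0.0821) and its relative HNRNPDL at 0.22 (adjusted p = 0.108), so both calls depend on how probe sets are combined.

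**Figure D4:**
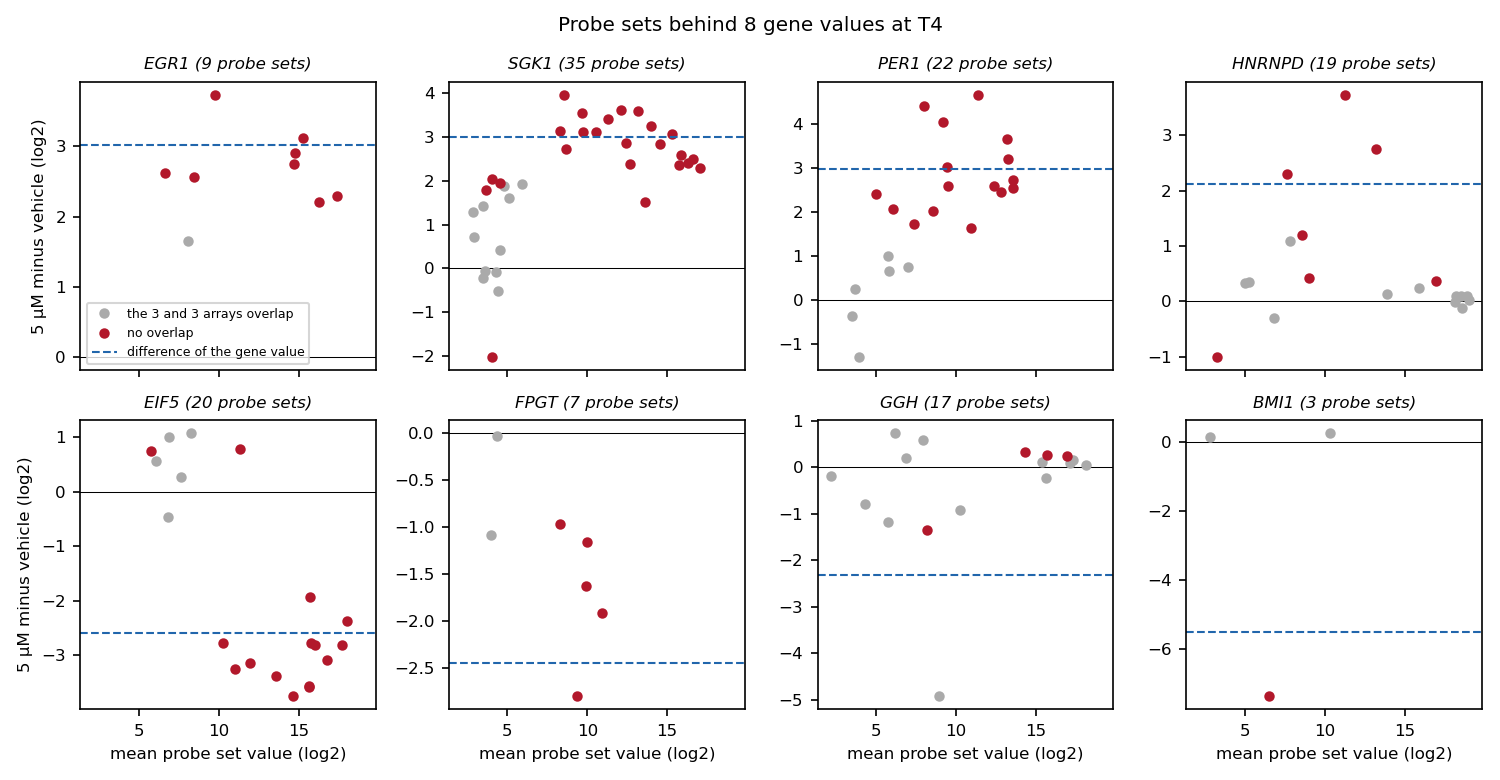
Each point is a probe set of the gene named, with its mean log2 value over the 6 arrays (x axis) and its difference between 5 µM digoxin and vehicle at T4 (y axis), red where the 3 and 3 arrays do not overlap, and the dashed line is the difference of the gene value. The probe sets of EGR1 all lie above 0, and GGH and BMI1 have 1 probe set each that is separate and lower. Those of EIF5 form a set between -0.46 and 1.07 and a set between -1.93 and -3.74.

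The remaining large decreases were of enzymes and regulators with no list in common. FPGT, which activates fucose salvaged from glycoproteins, read 8.09, 8.09 and 7.99 in 5 µM digoxin cells, against 10.30, 10.37 and 10.82 in vehicle cells. Its groups were more than 2 log2 units apart, at -2.44 ± 0.22 (adjusted p = 1.72e-06), and at -1.41 by median polish. MOCS2, a subunit of molybdopterin synthase, read 13.25, 12.60 and 12.72 in 5 µM digoxin cells, against 15.16, 14.88 and 15.27 in vehicle cells and fell by 2.24 with a standard error of 0.27 (adjusted p = 2.3e-05). CPT1C, a carnitine palmitoyltransferase isoform of the endoplasmic reticulum, read 8.99, 9.94 and 9.41 in 5 µM digoxin cells, against 11.06, 11.68 and 11.84 in vehicle cells and fell by 2.08 with a standard error of 0.28 (adjusted p = 5.92e-05). ELAC1, a tRNA processing enzyme, read 7.04, 7.44 and 6.91 in 5 µM digoxin cells, against 8.97, 9.43 and 9.06 in vehicle cells and fell by 2.02 with a standard error of 0.27, on all 3 of its probe sets. The groups of each of these genes were separate.

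TMEM177, a mitochondrial protein of cytochrome oxidase assembly, and PPP6R2, a subunit of protein phosphatase 6, fell by 2.38 and 2.21, and by median polish they were at -1.41 and -1.18. RABL2B, a small GTPase of cilia, fell by 2.69 with a standard error of 0.49, on 2 of 3 probe sets and by 1.71 under median polish, and its near-identical copy RABL2A can share its signal. BLID, a small gene without introns tied to apoptosis, fell by 2.11 with a standard error of 0.39 (adjusted p = 0.0017), on 2 of 3 probe sets.

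For 2 of the 15 largest decreases few probe sets were separate in the direction of the call. BMI1, a Polycomb subunit, read 2.11, 3.42 and 4.83 in 5 µM digoxin cells, against 8.59, 10.53 and 7.79 in vehicle cells, at -5.52 ± 1.61 (adjusted p = 0.0424). Of its 3 probe sets 1 differed by -7.36 and the others by 0.15 and 0.25, and median polish gave -0.98 (adjusted p = 0.0953). GGH, which trims folate polyglutamates, was at -2.33 ± 0.67 (adjusted p = 0.0403), and of its 17 probe sets 1 was separate and lower and 3 were separate and higher. Its 8 probe sets with the highest values differed by -0.22 to 0.33. By median polish GGH was at 0.02 (adjusted p = 0.921), so its call does not hold.

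Of 396 tested genes whose symbol starts with ZNF, 6 rose and 31 fell, or 9.34% called against 7.14% of all genes, with a median of -0.22 against 0.02. ZNF30 read 5.63, 5.96 and 5.40 in 5 µM digoxin cells, against 7.80, 7.94 and 8.34 in vehicle cells and fell by 2.36 with a standard error of 0.32 (adjusted p = 6.47e-05), and ZNF266 and ZNF397 fell by 1.74 and 1.19. ZNF367, a factor of the cell cycle, went the other way with 13.70, 13.62 and 13.83 in 5 µM digoxin cells, against 11.60, 12.08 and 12.13 in vehicle cells, a rise of 1.78 ± 0.18 (adjusted p = 3.93e-06). Long non-coding RNAs, with 8.67% called, had a median of -0.14, and 1 of 10 small nucleolar RNA host genes (10% called), SNHG12, fell by 0.65. Of 27 cytosolic ribosomal protein genes tested (11.1% called), 3 fell and 0 rose, RPL37 by 1.10, RPLP0 by 1.15 and RPS4X by 0.76, and these families have many processed copies in the genome that can share signal. Of 18 alternatives, RPL37 was called in 17, RPLP0 in 9 and RPS4X in 8. For RPS4X, 28.6% of the probe sets lay near the top of the scale.

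Alpha-arrestins and TXNIP, which turn over nutrient transporters and receptors, divided. ARRDC3 read 9.53, 9.42 and 9.71 in 5 µM digoxin cells, against 11.75, 11.81 and 11.05 in vehicle cells and fell by 1.99 with a standard error of 0.29 (adjusted p = 0.000174), on 12 of 13 probe sets. TXNIP, which binds thioredoxin and limits glucose uptake, read 18.33, 18.36 and 18.68 in 5 µM digoxin cells, against 17.13, 17.08 and 17.10 in vehicle cells, a rise of 1.35 ± 0.15 (adjusted p = 8.34e-06), and ARRDC4 rose by 1.47 ± 0.36. Groups were separate for all 3.

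Of 36 G1 to S genes tested, 4 rose and 2 fell (16.7% called), and of 33 G2 and mitosis genes 0 rose and 2 fell, where 6.06% is near the 7.14% of all genes. CDC25A, the phosphatase that activates CDK2, read 12.70, 12.37 and 12.65 in 5 µM digoxin cells, against 11.15, 10.96 and 11.09 in vehicle cells, a rise of 1.50 ± 0.16 (adjusted p = 4.26e-06). E2F1, a factor of S phase genes, rose by 1.27 ± 0.21 (0.68 by median polish), E2F3 by 1.54 and E2F8 by 1.32. SKP2, which marks the inhibitor p27 for degradation, read 15.08, 15.07 and 14.98 in 5 µM digoxin cells, against 16.14, 16.18 and 16.16 in vehicle cells and fell by 1.12 with a standard error of 0.13 (adjusted p = 1.83e-05), and CDKN2C, an inhibitor of CDK4 and CDK6, fell by 1.62 with a standard error of 0.23. CDC20 and CDC25C, of mitosis, fell by 0.53 and 0.63, and CDC20 was at -0.32 by median polish. CDKN1A and PMAIP1, a growth arrest gene and a BH3-only killer, were the 2 of 25 p53 targets that rose, by 0.88 ± 0.21 and 1.65 ± 0.20. This share of 8% is near the 7.14% of all genes. PMAIP1, on both lists, and MCL1 (0.89, or 0.50 by median polish), its antiapoptotic partner, made up the 2 of 20 BCL2 family genes that rose (10% called).

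Of 25 genes of cholesterol synthesis, uptake and sensing tested, 5 rose and 1 fell (24% called), with a median of 0.16. INSIG1, which holds the sterol sensor in the endoplasmic reticulum, read 14.39, 14.38 and 14.55 in 5 µM digoxin cells, against 12.57, 13.31 and 11.93 in vehicle cells, a rise of 1.84 ± 0.28 (adjusted p = 0.00022), and STARD4, a sterol carrier, rose by 1.45 ± 0.16 (adjusted p = 6.11e-06). SC5D, SREBF2 and NPC1 were the other rises, of which SC5D was 0.45 by median polish against 1.48, and INSIG2 fell by 0.76. Of 17 genes of fatty acid synthesis, 0 were called, with a median of 0.16. Of 15 of mitochondrial fatty acid oxidation and biogenesis (6.67% called) only CPT2 fell, by 1.32 with a standard error of 0.18 (adjusted p = 7.46e-05).

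The shares called among ATF4 targets (7.41%) and genes of ribosome biogenesis (3.85%) were near and under the 7.14% of all genes. Of 21 endoplasmic reticulum chaperones and unfolded protein response genes tested, 0 were called, with a median of 0.05, and of 27 ATF4 targets 2 rose, PPP1R15A and CEBPB (1.20, or 0.66 by median polish), with a median of -0.05. Of 19 heat shock genes (15.8% called), HSF2 rose by 0.93 ± 0.24, and HSP90AA1 and its cochaperone CHORDC1 fell by 1.40 and 2.32. Median polish gave -0.17 (adjusted p = 0.209) for HSP90AA1 and -1.05 for CHORDC1. IFIT3 and IFIT5, antiviral proteins, were the 2 of 18 interferon response genes that fell (11.1% called), by 0.97 and 1.09. IFIT5 was at -0.67 by median polish. Of 10 metallothionein and zinc genes (20% called), the importer SLC39A10 rose by 1.07 ± 0.24 and the exporter SLC30A1 fell by 0.62. Of 29 genes of glycolysis and hypoxia (10.3% called), PFKFB3 (1.79, or 0.92 by median polish) and KDM3A rose. GAPDH was called lower at -1.50 ± 0.29, but 35.7% of its probe sets lay near the top of the scale and median polish gave -0.07 (adjusted p = 0.684). Of 9 genes of the MYC and MAX network, 2 rose, 1 fell (33.3% called) and the median was 0.29. MAX was called higher at 1.52 ± 0.40 and was at -0.03 (adjusted p = 0.909) by median polish, so that its call does not hold. Of 21 ubiquitin ligases (23.8% called), 3 rose and 2 fell, among them RNF19A at 1.53 and NHLRC1 at -1.96. Of 18 histone genes tied to replication, 2 rose and 0 fell (11.1% called). Of 26 genes of ribosome biogenesis and RNA polymerase I, 1 fell, RRS1 by 1.13, and 0 rose.

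The lower dose was read against the same 3 vehicle arrays, so the comparisons share their controls and are given side by side. In cells given 0.5 µM digoxin at T4, 294 genes were called against vehicle (2.47%), 165 higher (1.39%) and 129 lower (1.08%), and 163 to 194 without any 1 of the 6 arrays. For EGR1 the differences from vehicle were 2.03 at 0.5 µM and 3.02 at 5 µM, for IL24 1.86 and 2.43, for DUSP1 1.63 and 2.37, and for EIF5 -2.24 and -2.59. PER1 was at 1.24 (adjusted p = 0.082) at 0.5 µM and 2.96 at 5 µM, and CXCL2 at 0.80 (adjusted p = 0.208) and 2.29. ARRDC3 was at -2.19 and -1.99, CLK3 at 1.67 and 1.78, and TXNIP at 1.36 and 1.35.

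The direct test of 5 µM against 0.5 µM, which uses no vehicle array, called 4 genes (0.0336%), 3 higher (0.0252%) and 1 lower (0.0084%), while 960 had an unadjusted p under 0.05. IL6 read 10.74, 10.19 and 10.20 at 5 µM and 8.54, 8.79 and 8.91 at 0.5 µM, a difference of 1.63 ± 0.19 (adjusted p = 3.17e-04), which was 0.77 by median polish. Against vehicle it was at -0.07 at 0.5 µM and 1.56 at 5 µM. By median polish IL6 was 1.32 above vehicle at 5 µM. How near IL6 at 0.5 µM lies to vehicle thus depends on how probe sets are combined. The histone gene H2BC21 read 10.52, 11.00 and 10.60 at 5 µM and 9.28, 9.29 and 9.27 at 0.5 µM, a difference of 1.43 ± 0.22 (adjusted p = 0.0149), which was 0.37 by median polish, and against vehicle it rose by 2.08 ± 0.22 at 5 µM, or 0.93 by median polish. PRLR, the prolactin receptor, read 4.74, 5.13 and 4.95 at 5 µM, all under the filter of 6.02, and 6.08, 6.50 and 6.09 at 0.5 µM, just above it. It fell by 1.29 with a standard error of 0.20 (adjusted p = 0.0156). PRLR was not tested under median polish and was called in 7 of the 15 alternatives that tested it. Of these 2 groups only the one where it was higher reached the filter. The fourth gene was VTRNA1-1, a vault RNA with 1 probe set, at 2.48 ± 0.41 (adjusted p = 0.0219), which the rule for naming genes passed over and which was named after its value was seen. Without 5 µM digoxin array 2, or without any 1 of the 0.5 µM digoxin arrays, 1 gene was called. For PER1 the direct difference was 1.73 ± 0.36 (adjusted p = 0.112) and for EGR1 0.99 ± 0.18 (adjusted p = 0.0638), so these did not pass, which does not show that the doses act alike.

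**Figure D5:**
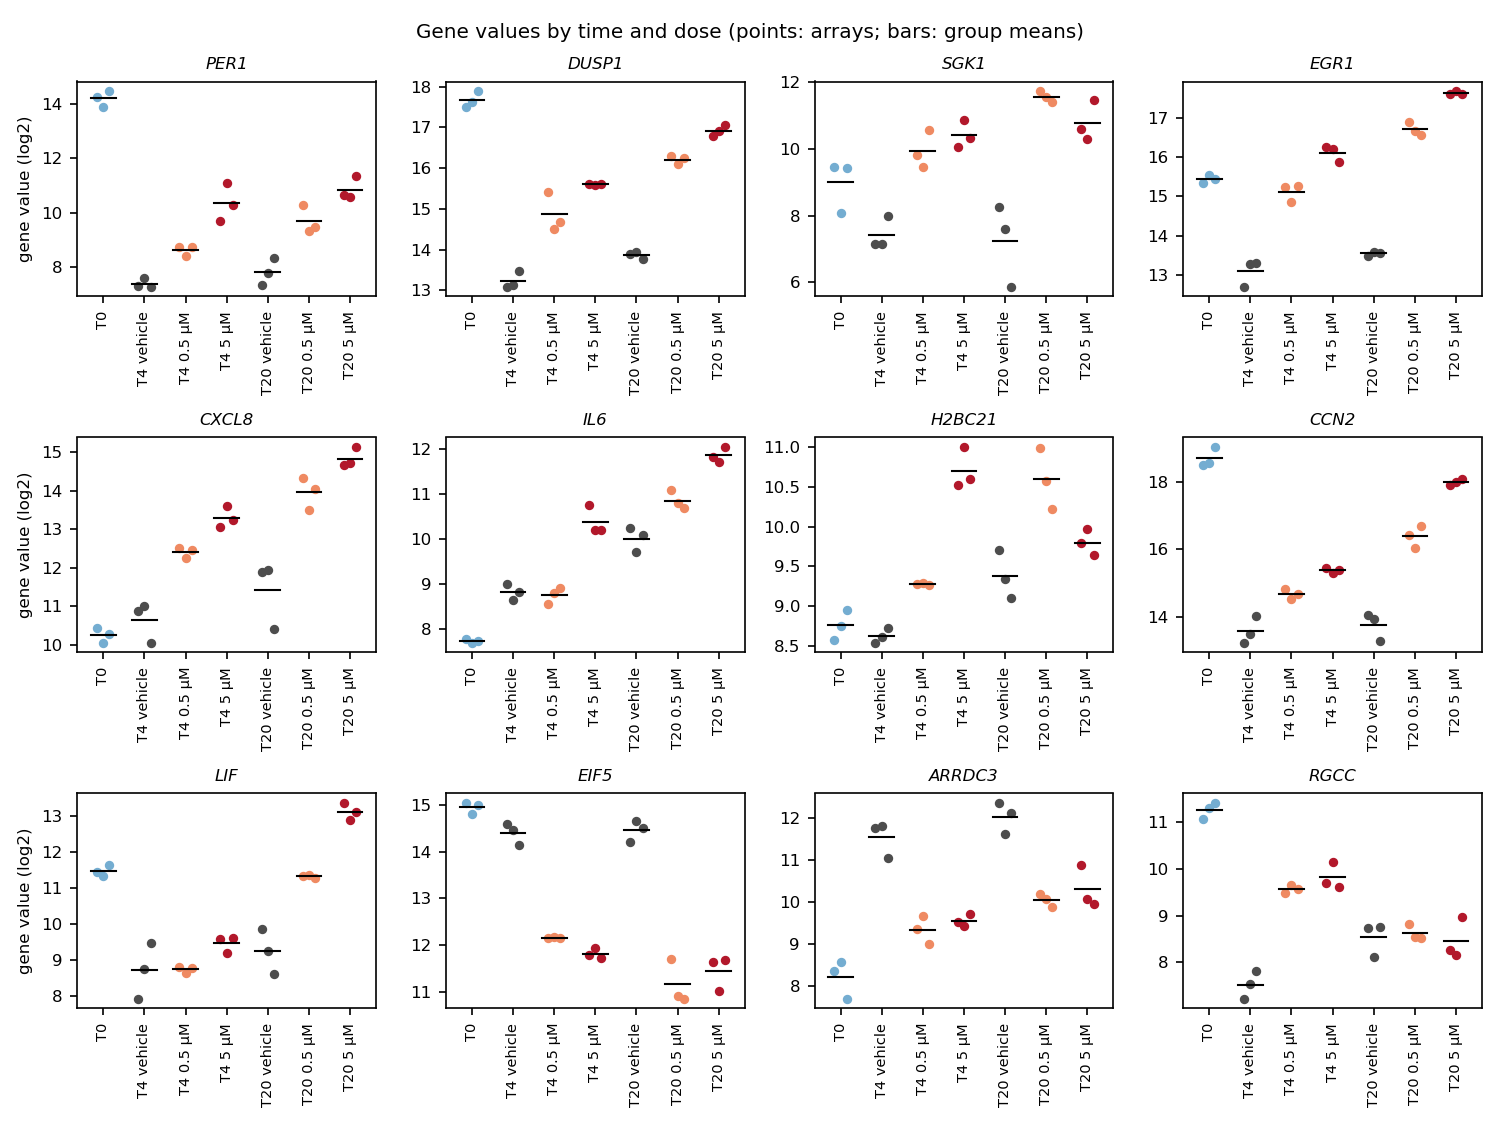
Log2 gene values (y axis, scaled to each gene) of 12 genes in untreated cells at T0 and in cells given vehicle, 0.5 µM or 5 µM digoxin at T4 and at T20, with 1 point per array and a bar at each group mean. PER1, DUSP1 and CCN2 are highest at T0, IL6 at T4 lies above vehicle at 5 µM and beside it at 0.5 µM, and CCN2 and LIF are further from vehicle at T20 than at T4.

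The effect of 5 µM digoxin at T20 minus that at T4 was tested as an interaction and called 14 genes (0.118%), 8 higher (0.0672%) and 6 lower (0.0504%), with 936 at an unadjusted p under 0.05. CCN2 read 17.90, 18.00 and 18.07 under 5 µM digoxin at T20, against 14.06, 13.94 and 13.28 in T20 vehicle cells, and the effect exceeded that at T4 by 2.44 ± 0.32 (adjusted p = 0.00123). LIF, which at T4 was called by median polish but not on the median of its probe sets, read 13.35, 12.88 and 13.11 under 5 µM digoxin at T20, against 9.86, 9.26 and 8.60 in T20 vehicle cells, and its effect was larger by 3.13 ± 0.43 (adjusted p = 0.00137). NR1D1 was larger at T20 by 2.56 ± 0.39 (adjusted p = 0.00425). RGCC, among the largest rises at T4, read 8.26, 8.16 and 8.97 under 5 µM digoxin at T20, against 8.73, 8.12 and 8.76 in T20 vehicle cells, where the groups overlapped, and the difference of the effects was -2.35 ± 0.31 (adjusted p = 0.00123). Of the 6 called lower, 2 were microRNA genes with 1 probe set each, MIRLET7I at -2.71 ± 0.35 and MIR3143 at -1.76 ± 0.31, also named after their values were seen. Leaving out 1 array changed the count to 5 (without T20 5 µM digoxin array 2, T4 5 µM digoxin array 3 or T4 vehicle array 1), 6 (without T20 vehicle array 2 or T4 vehicle array 3) or 8 (without T20 vehicle array 3 or T4 5 µM digoxin array 2). Without T20 5 µM digoxin array 3 the count was 21, and the other fits of this kind gave 10 or 12. The exposure at T20 is not settled by the labels, so time of day and length of exposure cannot be told apart here.

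The probe sets behind the calls bear on how firmly a gene can be named. Of all probe sets with 1 symbol, 8.17% were separate and higher and 8.57% separate and lower between 5 µM digoxin and vehicle at T4. Of 360 genes called higher with at least 3 probe sets, 228 had at least 50% of them separate in the direction of the call and 6 had 1 or none. Of 420 genes called lower, 243 had at least 50% and 21 had 1 or none. Of the 123 genes called between 5 µM digoxin and vehicle at T4 and named by rule, 112 were also called under median polish, and 30 had a difference more than 1.5 times that of median polish or of the opposite sign. With 3 arrays a group, the median standard error of a difference was 0.26, which sets the size of change that could be called.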

How the data were processed

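RNA of 24 AC16 samples in 8 groups of 3 was hybridized to Human Gene 2.0 ST arrays, 1 array per sample. The deposited log2 values come, per the series' design text, from the Galaxy tool suite GIANT and its Robust Multi-Average normalization. The versions are not given by the sources used here, and the submitters' processing notes name limma without one. All 352859 probe sets per array were read in as deposited, before the steps below, and no column belonged to another sample.

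Array medians spanned 6.25 to 6.38, over the limit of 0.1, so values were quantile normalized. Probe sets with exactly 1 symbol (259224) were kept, and 13116 with several and 80519 with none or no listing were left out; 1726 symbols were updated through RefSeq. The gene value is the median of the probe sets of a symbol (22260 genes, median 10 probe sets). Genes whose highest group mean reached the median gene value of 6.02 were tested (11911, with 10349 below). Groups were compared with limma 3.58.1 in R 4.3.3 (lmFit and eBayes, 1 mean per group over all 24 arrays, 16 residual and 4.01 prior degrees of freedom, two-sided, Benjamini-Hochberg threshold 0.05). The number of arrays limits the precision. The workflow was tested on simulated data. Figures were drawn with matplotlib 3.10.9.

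Groups follow the sample titles. The comparison described, the gene lists and the tests were chosen with earlier results of these data known, so the lists are described by counts and medians and support nothing by themselves. The text names the 15 largest rises and 15 largest decreases for 5 µM digoxin against vehicle (called, no overlap of the 3 and 3 arrays, at least 3 probe sets), 8 and 8 for the dose difference and for the difference between times, up to 4 called members of each list with the smallest adjusted p, and all clock and pump genes; unnamed loci, non-coding RNA families, antisense genes and pseudogenes were passed over. Other called members of the lists are counted, and some of them are named, with or without their differences. Some members picked by this rule are likewise only counted.

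Same-numbered replicates did not deviate together: the correlations of their deviations in the 5 µM digoxin and vehicle groups were 0.111, 0.062 and -0.033, so the numbers were not used as pairs. As alternatives, probe sets were combined by median polish or mean, arrays were scaled in other ways, the filter was dropped, the replicate number was a block, the fit held the compared arrays only, eBayes was run with trend and robust, and each array was left out.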

Additional observations from a re-analysis of the deposited data

Results flagged for a closer look

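The effect of 5 µM digoxin differed between T20 and T4 by the interaction test for 12 named genes, with the labels unclear on the exposure at T20. For CCN2 the difference of the effects was 2.44, for LIF 3.13, for NR1D1 2.56 and for RGCC -2.35, as described above. EDN1, the vasoconstrictor endothelin 1, was at -0.66 at T4 and its effect was larger by 3.05 ± 0.52 at T20 (adjusted p = 0.0187). IL1A, an alarm cytokine, was at 0.65 at T4 and its effect was larger by 2.53 ± 0.45 at T20 (adjusted p = 0.0229). BIRC3, an inhibitor of apoptosis induced by NF-kB, was at -0.01 at T4, and its effect at T20 was larger by 2.16 ± 0.39 (adjusted p = 0.0234).

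CCL2 and ENC1, the second a protein that binds actin, fell at T4, by 0.68 and 1.24, and their effects at T20 exceeded those at T4 by 1.56 ± 0.28 and 2.11 ± 0.38 (adjusted p = 0.0229 for both). For CCL2 the T20 arrays read 17.00, 16.76 and 16.84 under 5 µM digoxin, against 16.13, 15.90 and 15.91 in vehicle cells, so the arrays of 5 µM digoxin cells were the higher ones at T20. CCN4, a target of WNT signalling, had a difference of effects of -1.44 ± 0.25 (adjusted p = 0.0229). GAPDH, with -2.16 ± 0.41, and H2BC21, with -1.66 ± 0.31 (adjusted p = 0.0267 for both), were at -0.37 and -0.32 by median polish and were not called there. Of 24 alternatives each, CCN2 and RGCC were called in 24, LIF and NR1D1 in 23, EDN1 in 18 and BIRC3 in 11.

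The control RNAs, which are not among the genes tested though the poly-A set served to scale an alternative fit, also differed between the arrays at T4. The poly-A controls were higher by 0.23 on the arrays of 5 µM digoxin cells than on those of vehicle cells, and the hybridization controls by 0.13, at 5.97, 6.00 and 5.94 under 5 µM digoxin, against 5.90, 5.79 and 5.81 under vehicle. At T20 the same differences were 0.72 and 0.32. Groups of 3 arrays were not tested for outlying samples.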

How the results depend on the processing

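For 5 µM digoxin against vehicle at T4, median polish called 2594 genes (1080 higher, 1514 lower), the mean of probe sets 2118 (875 and 1243), poly-A scaling 155 higher and 1049 lower, no filter on low values 308 lower, and a fit of only the arrays compared 509 (213 and 296). Leaving out each array gave 510 to 656 calls, 240 to 287 higher and 270 to 388 lower. In the same order of median polish and mean, 5 µM against 0.5 µM gave 52 and 22 (0 with only the arrays compared, 1 to 3 leaving out arrays), 0.5 µM against vehicle 1148 and 966 (192 with poly-A scaling, 195 without filter, 99 with only the arrays compared, 163 to 194), T20 minus T4 67 and 33 (36 with poly-A scaling, 7 without filter, 5 to 21), and 5 µM digoxin at T4 against T0 2682 and 2164 (654 without filter, 476 with only the arrays compared, 613 to 789). Fewer arrays or degrees of freedom enter the fits with arrays left out, and the cause of the other shifts was not tested.

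Among named genes in the comparison of 5 µM digoxin with vehicle at T4, directions reversed for 2 called genes, GGH at 0.018 and MAX at -0.028 under median polish, and otherwise only for genes not called. Under median polish these were ATP2A2 (0.21), ATP2B4 (-0.17), BIRC3 (0.39), BMAL2 (0.088), CCN4 (0.0093), CLOCK (0.20), CSNK1E (0.29) and FXYD5 (0.0056). Under the mean of probe sets they were ATP2A2 (0.28), ATP2B4 (-0.14), BIRC3 (0.32), BMAL2 (0.044), CLOCK (0.24), CSNK1E (0.23), DBP (0.025) and FXYD5 (0.023). ATP2B4 was -0.00901 as deposited, BIRC3 0.035 and FXYD5 0.042 after centring, and ATP2B1 -0.11, ATP2B4 -0.24 and CIART -0.068 under poly-A scaling. Leaving out arrays gave -0.21 to 0.18 for ATP2B4, -0.077 to 0.11 for BIRC3, -0.41 to 0.36 for BMAL2, -0.071 to 0.43 for CIART, -0.32 to 0.24 for CSNK1E, -0.21 to 0.072 for DBP and -0.29 to 0.36 for FXYD5.

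Of the 123 named genes called, 74 were called under every alternative that tested them, including 28 of the 30 largest changes; the exceptions were BMI1 and GGH. With the replicate number as a block, 810 genes were called (370 higher, 440 lower), of which 773 were among the 851. With 3 arrays a group, probe sets near background or near the top of the scale limit what could be read.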

Other observations

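Among classes of genes with no list of their own, small nuclear RNAs had 2 rises and 2 decreases of 11 tested (36.4% called), with a median difference of 0.20. Small nucleolar RNAs had 1 rise and 4 decreases of 147 (3.4% called), with a median of 0.04. The share called over all genes tested was 7.14%. Of the classes compared, small nuclear RNAs hold the fewest genes tested.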
